A study of Mus musculus with 24 samples.

Results

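The genes described here encode DOCK exchange factors and other proteins of Rac-driven cell movement in B cells. They are Dock2, Dock8, Dock10, Dock11, Rac1, Rac2, Elmo1, Coro1a and Was. All probe sets that the platform's annotation gives to one of these 9 genes alone were taken, which gave 9 of the 18193 genes with such a probe set and 23 of the 45037 probe sets tested. No probe set of several genes named a member, and Was had 1 probe set, Dock8 had 4, and the others had 2 or 3. Expression was measured on Affymetrix mouse genome arrays in B cells sorted from the spleens of female mice aged 7 weeks. The strains were NOD/ShiLtJ (NOD), which develops autoimmune diabetes spontaneously, and C57BL/6/J (B6), which does not. In each strain the labels name 6 subsets, namely the transitional T1, T2FO and T3 cells, the mature follicular FO cells, the T2MZ cells on the way to the marginal zone and the mature marginal zone MZ cells. Cells bearing CD3ε or CD11b, markers of T and myeloid cells, had been removed, and the gates used CD93, CD23, CD24, B220, IgM and complement receptor staining. No mouse was treated or carried an engineered allele according to the labels. Each of the 12 groups had 2 arrays, each strain and experiment used 1 pool of 8 mice, and the 24 arrays trace back to 4 pools.

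Rac proteins are small GTPases that switch on the branching of actin filaments and so drive the leading edge of a moving lymphocyte. Exchange factors load them with GTP. Dock2, in complex with Elmo1, is the main Rac exchange factor of lymphocytes downstream of chemokine receptors, while Dock8 and Dock11 act on the related GTPase Cdc42, and Dock10 can act on both. Was encodes WASP, which carries the Cdc42 signal to the actin-nucleating Arp2/3 complex, and Coro1a encodes coronin 1A, an actin-binding protein of leukocytes. In mice, loss of Dock8 or of WASP is known to deplete marginal zone B cells.

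In the authors' table of log2 values the median of every probe set over the arrays is 0. They give differences between arrays and no level of expression, so no member can be called abundant or absent, and genes cannot be ranked by level. In sorted bulk cells, fewer cells of a kind and less RNA per cell cannot be told apart. The gate transcripts followed the NOD subset labels only in part. Cd93, a marker of immature B cells, averaged at its probe set 1456046_at -2.09 in the NOD T1 label, against 3.06 in B6 T1, and Cr2 averaged 1.20 against -1.72, both against the T1 label. Fcer2a, which encodes CD23, was low there as the label says, with -2.98 at 1422122_at, against -1.56 in B6 T1. B6 MZ was low in it too (-2.53), whereas the NOD MZ label had 0.18. NOD groups are named below by their label only, and every direction in a single subset rests on it. By the array's own control for the 5' part of beta-actin mRNA, the B6 arrays fell into 3 sets. This control lay between -0.54 and 0.79 in the 12 NOD arrays, against -4.04 to -3.27 in 6 B6 arrays (low), -1.36 to -0.77 in 4 (middle) and 0.42 to 0.47 in 2 (like NOD). The low set holds 1 array of every B6 subset, namely replicate 2 of T1, T2FO, T3 and T2MZ and replicate 1 of FO and MZ. The 2 arrays within the NOD range are replicate 2 of FO and of MZ. Averaged over the subsets, 2 of the 24 probe sets of gate transcripts were called higher in NOD and 2 lower. The lower ones were Cd93 1419589_at and 1456046_at, each with -2.26 (adjusted p = 0.0086 and 0.00873, limma). Cd93 was thus lower in NOD over the labels and not only in T1, while its other probe sets were not called. Of the B cell marker list 1 of 13 probe sets was called higher in NOD and none lower. No probe set of the T cell, myeloid, dendritic, NK or erythroid lists was called. The median of the myeloid list ran from -0.16 to 2.16 in NOD arrays and from -0.28 to 1.20 in B6 arrays, with the highest value in NOD FO replicate 1. The NK list reached 1.87 in B6 T2FO replicate 2. The part of these signals in the results below was not tested beyond the values given.

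Dock2 had 3 probe sets, and they did not agree. At probe set 1444741_at every NOD array lay below every B6 array. Of the NOD arrays, those labelled T1 had -0.47 and -0.80, those labelled T2FO -1.10 and -0.71, and those labelled T3 -0.67 and -1.10. The NOD arrays labelled FO had -0.91 and -0.21, those labelled T2MZ -0.53 and -0.46, and those labelled MZ -1.10 and -0.29. The B6 arrays had 0.45 and 2.29 in T1, 0.21 and 1.97 in T2FO, 0.27 and 1.47 in T3, 2.52 and 2.00 in FO, 0.36 and 2.24 in T2MZ, and 2.54 and 2.41 in MZ. The NOD arrays thus stayed within 1 log2 unit of each other, whereas the B6 arrays fell into a low group of 4 and a high group of 8. The low 4 are the B6 arrays with middle 5' control signal, at 0.21 to 0.45. The 2 B6 arrays whose control signal was like that of NOD had 2.00 and 2.41, and the 6 with low control signal had 1.47 to 2.54.

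At Dock2 probe set 1422808_s_at the values went the other way, with -0.42, 0.40 and 0.65 as lowest, median and highest in NOD, against -0.65, -0.28 and 0.30 in B6. At 1438334_at they were -1.21, 0.00 and 0.33 in NOD and -0.46, -0.09 and 1.06 in B6. Both of these overlapped between the strains. Over the 24 arrays, which share their RNA between probe sets, Pearson's r between 1444741_at and 1422808_s_at was -0.67, and between 1444741_at and 1438334_at it was 0.50. Within the 12 NOD arrays all 3 pairs of Dock2 probe sets had positive r, from 0.34 to 0.83. Within the 12 B6 arrays r was -0.34 for 1444741_at with 1422808_s_at, -0.09 for 1438334_at with 1422808_s_at and 0.68 for 1444741_at with 1438334_at. These correlations describe the arrays and were not tested.

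The disagreement was tested by setting each probe set against the mean of the gene's other probe sets. The difference between NOD and B6 at 1444741_at, minus that of the others, was -2.44 ± 0.36 log2 units (SE, 2 pools per strain, adjusted p = 0.0211, limma with Benjamini-Hochberg adjustment). For 1422808_s_at it was 1.80 ± 0.21 above the others (adjusted p = 0.0116, limma), and for 1438334_at it was 0.65 ± 0.21 (adjusted p = 0.131). Such disagreement was common, since 10.1% of 25762 probe sets of genes with several passed the same test. Among the 22 member probe sets of genes with several, 5 passed. The other 3 were Dock8 1449419_at (0.58 ± 0.13, adjusted p = 0.049) and the Dock10 pair, which are mirror images of each other (1.39 ± 0.21, adjusted p = 0.0226). A statement on Dock2 in NOD therefore holds for one probe set at a time.

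**Figure D1:**
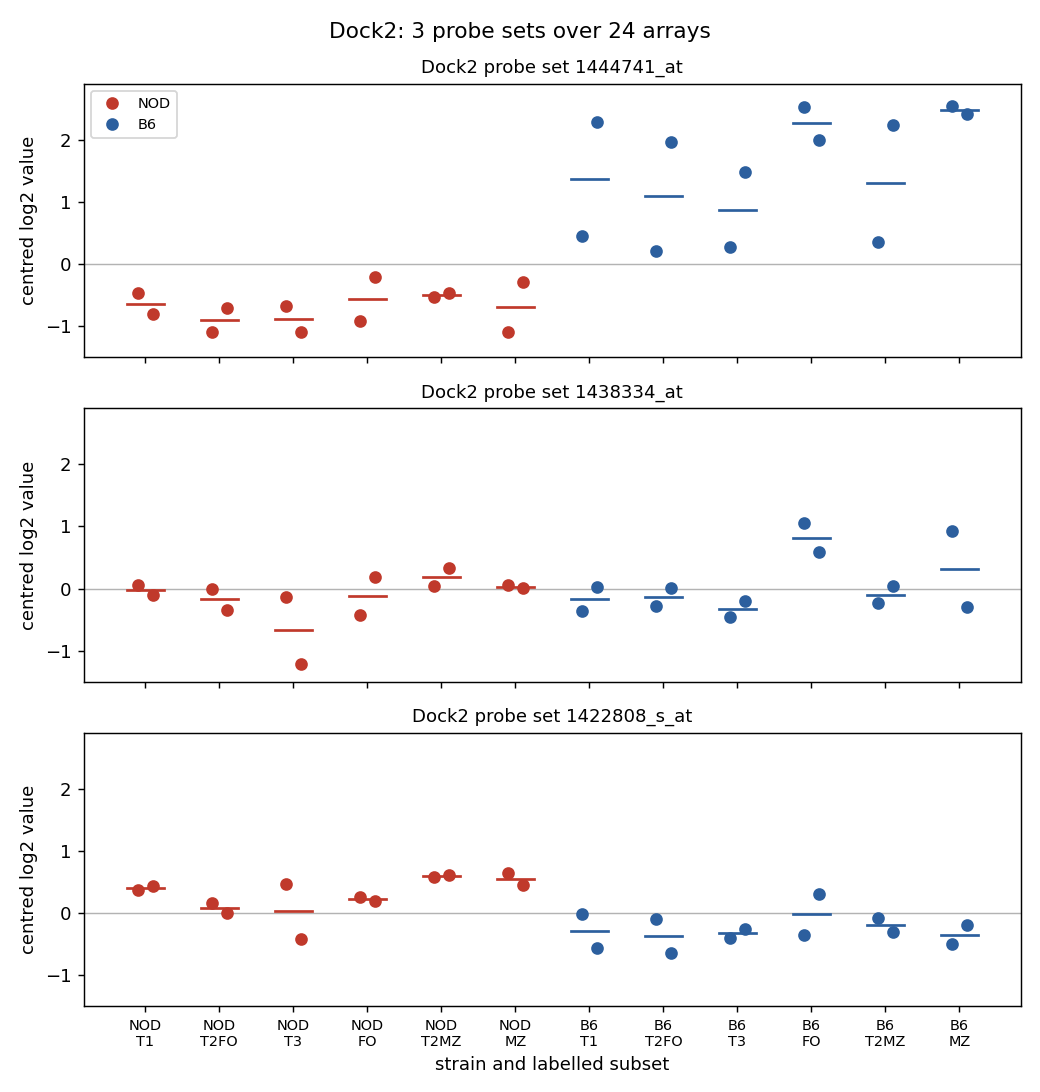
Centred log2 values of the 3 Dock2 probe sets in each of 24 arrays, by strain and labelled subset, with dots for the 2 arrays and a bar for their mean. At 1444741_at the NOD arrays lie between -1.10 and -0.21 and the B6 arrays between 0.21 and 2.54, while the other probe sets overlap between strains.

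The average over the subsets does not depend on which array of a strain carries which subset label. The SE and adjusted p of pool tests, here and for the disagreement of probe sets, do depend on which arrays share a pool. With the B6 FO and MZ replicate numbers crossed, 0.131% of all probe sets passed and no member. With the numbers as given, no member probe set had an adjusted p under 0.05 in limma's test of the 4 pool averages. Of all probe sets 3.02% did, 1.64% higher and 1.38% lower in NOD. At an unadjusted p under 0.05 there were 8 members, 7 higher and 1 lower in NOD, where 19.0% of all probe sets reached that level. With the 24 arrays taken as independent, 11 member probe sets passed (47.8%), 10 higher and 1 lower, as did 19.8% of all probe sets. The median difference of the 23 probe sets was 0.35 log2 units, against -0.03 over all probe sets tested. The difference was above 0 in 19 members (82.6%), against 41.7% of all probe sets. Without overlap between the 12 NOD and the 12 B6 arrays were 2 members, Dock2 1444741_at and Dock10 1439247_at, or 8.70% of them, where 2.4% of all probe sets showed none, 1.51% higher and 0.89% lower in NOD.

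Dock2 1444741_at averaged -0.80 and -0.59 in the NOD pools, against 1.06 and 2.06 in the B6 pools. The difference was -2.26 ± 0.35 log2 units (SE, adjusted p = 0.0573, limma). It was -1.65 when only the 6 B6 arrays that were not low at the 5' control entered and -2.87 with only the 6 low ones. These fits take arrays as independent and leave 1 array per B6 subset. Their spread comes from the NOD pairs alone, so no SE is given. Replicates at this probe set had an SD of 0.36 in NOD and 0.99 in B6. Its standard deviation over the 24 arrays was larger than that of 99.2% of probe sets. Dock2 1422808_s_at differed by 0.57 ± 0.11 (adjusted p = 0.0829) and 1438334_at by -0.20 ± 0.10 (adjusted p = 0.416, limma). The sign of the last turned to 0.05 with the B6 arrays that were not low and was -0.44 with the low ones.

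Dock10, an exchange factor that interleukin-4 induces in B cells, had the largest positive difference among the members. At 1439247_at the NOD arrays had 1.57 and 1.40 in those labelled T1, 0.96 and 0.42 in T2FO, 0.59 and 0.71 in T3, 0.81 and 0.04 in FO, 1.18 and 0.76 in T2MZ, and 0.24 and 0.52 in MZ. The B6 arrays had -1.93 and -0.25 in T1, -1.08 and -0.39 in T2FO, -2.16 and -1.02 in T3, -1.30 and -0.04 in FO, -2.22 and -0.37 in T2MZ, and -0.90 and -0.24 in MZ. No NOD array lay below a B6 array, but the gap between the nearest pair, NOD FO replicate 2 at 0.04 and B6 FO replicate 2 at -0.04, was small. The difference over the subsets was 1.76 ± 0.43 (SE, adjusted p = 0.122, limma), 2.05 with the B6 arrays that were not low at the 5' control and 1.47 with the low ones. At the other Dock10 probe set, 1435343_at, the difference was 0.37 ± 0.24 (adjusted p = 0.543). There the NOD arrays ranged from -0.40 to 0.72, the 4 B6 arrays of middle control signal lay below them, between -1.36 and -1.02, and the other 8 lay among them, between -0.09 and 0.62. That difference was 0.88 without the low B6 arrays and -0.14 with only these.

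Dock8, needed by marginal zone and germinal centre B cells in mice, had 4 probe sets. At 1449419_at the lowest, median and highest values were -0.34, 0.35 and 0.61 in NOD, against -0.84, -0.59 and 0.21 in B6. Of the B6 arrays 3 lay above the lowest NOD array, namely FO replicate 2 at 0.21 and MZ replicate 2 at 0.10, which had control signal like NOD, and MZ replicate 1 at -0.21. The difference over the subsets was 0.76 ± 0.11 (adjusted p = 0.054, limma), and 0.66 and 0.86 without and with only the low B6 arrays. In FO and MZ alone, with only the B6 arrays numbered 2, it was 0.21. Dock8 1431961_at differed by 0.45 ± 0.10 (adjusted p = 0.114), 1439226_at by 0.15 ± 0.13 (adjusted p = 0.68) and 1433437_at by -0.05 ± 0.09 (adjusted p = 0.858, limma). At 1439226_at B6 FO replicate 2 and B6 MZ replicate 2 reached 1.29 and 1.45, above the other 10 B6 arrays, which lay between -0.53 and 0.44. Probe set 1433437_at varied little, and all 24 arrays lay between -0.27 and 0.23.

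Dock11, a Cdc42 exchange factor, differed by 0.57 ± 0.21 (SE, adjusted p = 0.266) at 1443467_at and by 0.02 ± 0.15 (adjusted p = 0.978, limma) at 1429028_at. Its values at 1443467_at were 0.12 and 0.41 in NOD arrays with the T1 label, 0.07 and -0.07 in T2FO, -0.08 and -0.30 in T3, 0.22 and 0.09 in FO, 0.31 and 1.15 in T2MZ, and 0.25 and 0.52 in MZ. In B6 they were -0.99 and -0.44 in T1, -1.05 and -0.36 in T2FO, -0.80 and -1.09 in T3, 0.71 and 1.26 in FO, -1.20 and -0.40 in T2MZ, and -0.43 and 0.67 in MZ. B6 FO was the highest B6 group and lay above NOD FO, while B6 T1, T2FO, T3 and T2MZ lay below the NOD arrays of the same label.

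Rac2, the Rac GTPase of blood cells, differed by 1.14 ± 0.20 log2 units (SE, adjusted p = 0.0713, limma) at 1417620_at. All NOD arrays lay between -0.05 and 0.55, against -2.06 to 0.06 in B6. The B6 arrays with low control signal had -2.06 to -1.19, those of middle signal -0.31 to 0.06, and the 2 with signal like NOD -0.69 and -0.43. The difference was accordingly 1.86 with only the low B6 arrays and 0.41 without them. With the 5' control difference as covariate and arrays taken as independent, it was 0.099 (adjusted p = 0.569, limma). At 1440208_at Rac2 differed by 0.71 ± 0.20 (adjusted p = 0.156), 0.77 with the low arrays and 0.65 without them. The covariate fit gave 0.68 there (adjusted p = 0.0179, limma). Rac1, which most cell types express, showed 0.28 ± 0.14 at 1451086_s_at, 0.03 ± 0.10 at 1423734_at and -0.04 ± 0.09 at 1437674_at, with adjusted p from 0.405 to 0.930 (limma). At the last of these all 24 arrays lay between -0.14 and 0.30.

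Elmo1 forms a complex with Dock2. Elmo1 differed by 0.46 ± 0.29 at 1446610_at, 0.30 ± 0.16 at 1450208_a_at and 0.01 ± 0.14 at 1424523_at (adjusted p from 0.456 to 0.988, limma). Its NOD replicates at 1446610_at were far apart, with 0.77 and -0.80 in the arrays labelled T1 and 0.98 and -0.39 in those labelled T2MZ. Coro1a had 3 probe sets that ran together, with Pearson's r between 0.75 and 0.91 over the 24 arrays. Over the subsets they differed by 0.77 ± 0.31 at 1435288_at, 0.47 ± 0.16 at 1416246_a_at and 0.31 ± 0.13 at 1455269_a_at, with adjusted p from 0.214 to 0.334 (limma). At 1435288_at the difference was 1.40 with only the low B6 arrays and 0.14 without them. Was differed by 0.35 ± 0.15 (adjusted p = 0.328), 0.39 with the low arrays and 0.30 without.

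**Figure D2:**
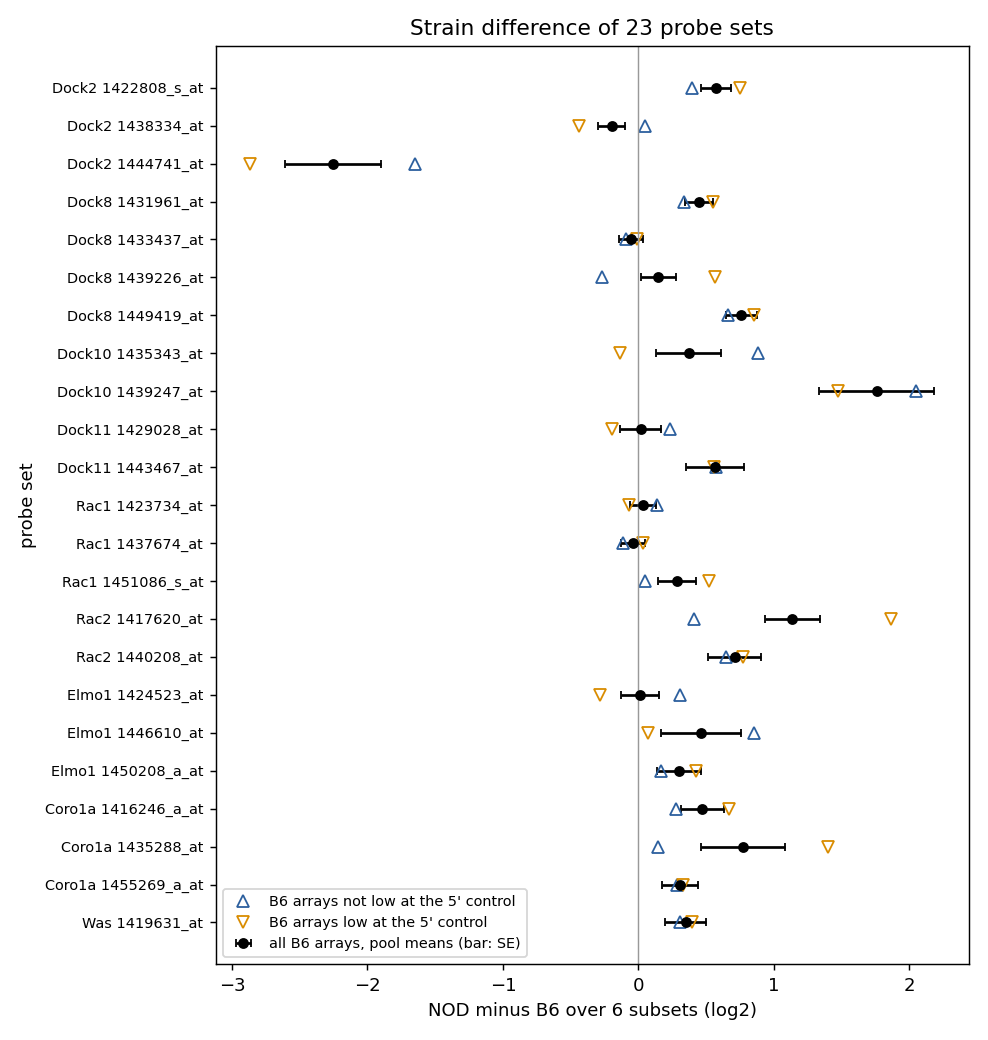
NOD minus B6 in log2 units, averaged over 6 subsets, for the 23 probe sets. Black dots with bars are limma estimates and SE from 4 pool means, and triangles give the value with only the 6 B6 arrays not low (pointing up) or low (pointing down) at the 5' beta-actin control. Dock2 1444741_at is the lowest at -2.26 and Dock10 1439247_at the highest at 1.76, and for Rac2 1417620_at the triangles stand at 0.41 and 1.86.

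Variation over the 6 subsets of a strain was tested next. In B6, Was and Coro1a passed, namely Was 1419631_at (F = 8.86, adjusted p = 0.0409) and Coro1a 1455269_a_at (F = 8.64, adjusted p = 0.044, limma with Benjamini-Hochberg adjustment). These are 2 of 23 members, where 1.41% of all probe sets passed. At an unadjusted p under 0.05 there were 6 (26.1%), against 9.07% of all probe sets. In NOD no member passed, where 1.77% of all probe sets did, and 1 (4.35%) had an unadjusted p under 0.05, against 7.598% of all. The NOD test does not depend on the names of the 6 groups, only on which arrays form a pair. Whether the profile over subsets differed between strains was tested as an interaction, which does rest on the NOD labels. None of the 23 members passed, where 1.35% of all probe sets did, and 5 (21.7%) had an unadjusted p under 0.05, against 8.11% of all. Was had F = 5.17 (adjusted p = 0.206) and Coro1a 1455269_a_at F = 5.27 (adjusted p = 0.194) there. Was and this Coro1a probe set are thus called to vary within B6 but are not shown to vary differently in NOD. The other Coro1a probe sets did not pass within B6 (1416246_a_at F = 4.90, adjusted p = 0.208, and 1435288_at F = 2.12, adjusted p = 0.787, limma).

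Was stood lowest in the mature B6 subsets. The NOD arrays ran from -0.38 to 0.35 over the 6 labels, with 0.35 and 0.23 in those labelled MZ. In B6 its values were 0.14 and -0.04 in B6 T1, 0.37 and -0.13 in T2FO, 0.03 and -0.12 in T3, -0.91 and -1.01 in FO, 0.31 and -0.14 in T2MZ, and -0.66 and -1.30 in MZ. The 4 arrays of FO and MZ lay at or below -0.66 and the other 8 at or above -0.14. Within the B6 arrays of low control signal, FO and MZ averaged -0.78 (n = 2) against -0.11 in the other 4, a difference of -0.67. The F of Was was 2.67 with only the low B6 arrays kept and 10.8 with these left out. In both fits 1 array per B6 subset remained and the spread came from the NOD pairs, so no p is given.

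Coro1a stood lowest in B6 MZ. At 1455269_a_at the NOD arrays lay between -0.17 and 0.46. The B6 arrays had 0.27 and 0.13 in T1, 0.32 and -0.07 in T2FO, -0.11 and -0.02 in T3, -0.38 and -0.12 in FO, 0.23 and -0.03 in T2MZ, and -0.76 and -1.47 in MZ. Within the B6 arrays of low control signal, FO and MZ averaged -0.57 at 1455269_a_at (n = 2), against 0.00 in the other 4. Its F was 2.47 with only these B6 arrays kept, against 8.64 with all. In that fit 1 array per B6 subset remained and the spread came from the NOD pairs. The other Coro1a probe sets had their lowest values in B6 MZ too, -1.15 and -1.28 at 1416246_a_at and -2.31 and -1.88 at 1435288_at. The call of Coro1a over the B6 subsets was lost when any of 10 of the 12 B6 arrays was left out, and held only without T2FO replicate 2 or MZ replicate 1. Without MZ replicate 2 its F was 3.92 (adjusted p = 0.421, limma), and without T1 replicate 1 it was 7.47 (adjusted p = 0.109). The call of Was was lost in 9 of the 12, with adjusted p up to 0.133 (limma, without FO replicate 2), and held without T2FO replicate 2, T2MZ replicate 2 or MZ replicate 1.

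The promoters of Was and Coro1a are shown because these are the genes with a probe set that was called to vary over the B6 subsets. They are RefSeq sequences of build GRCm38.p6, 300 bases each, from 250 before to 50 after the gene's start. The table held 7 of the 9 members by symbol. Was lies at chrX:8090442-8090741 and Coro1a at chr7:126704767-126705066 in these windows, both on the minus strand. Capitals mark the motif GAGGAA, a core bound by ETS factors such as PU.1, or CCGGAA, another ETS core, each searched on both strands.
Was: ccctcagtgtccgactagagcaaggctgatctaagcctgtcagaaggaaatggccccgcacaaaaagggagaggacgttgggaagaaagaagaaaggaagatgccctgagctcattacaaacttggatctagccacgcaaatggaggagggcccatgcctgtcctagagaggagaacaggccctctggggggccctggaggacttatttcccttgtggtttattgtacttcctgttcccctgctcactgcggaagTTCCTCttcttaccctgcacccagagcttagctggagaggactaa
Coro1a: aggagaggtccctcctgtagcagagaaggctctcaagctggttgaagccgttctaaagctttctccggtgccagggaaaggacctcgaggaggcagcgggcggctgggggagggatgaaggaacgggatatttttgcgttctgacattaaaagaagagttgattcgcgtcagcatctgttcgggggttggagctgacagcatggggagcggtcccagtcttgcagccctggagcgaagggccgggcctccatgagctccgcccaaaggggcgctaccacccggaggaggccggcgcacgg
The Was window holds 1 GAGGAA match, on the reverse strand, and no CCGGAA, and the Coro1a window holds neither. Of 32851 promoter windows of the same length 28.3% hold GAGGAA and 14.9% CCGGAA. The match is a description of the letters and was not tied to the values.

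In B6, MZ cells were compared with FO cells, the mature marginal zone against the mature follicular subset. No member passed, where 0.564% of all probe sets did, 0.373% higher and 0.191% lower (limma). At an unadjusted p under 0.05 there were 5 members (21.7%), all lower in MZ, against 6.04% of all probe sets. The median difference of the members was -0.21, against 0.00 over all probe sets. Coro1a had the largest differences, -1.80 ± 0.67 at 1435288_at (SE, adjusted p = 0.544), -0.91 ± 0.28 at 1416246_a_at (adjusted p = 0.316) and -0.87 ± 0.24 at 1455269_a_at (adjusted p = 0.188, limma). Because replicate 1 of both subsets was low at the 5' control and replicate 2 of both was like NOD, the difference can be read within each. For 1435288_at it was -1.47 between the low arrays and -2.12 between the others, and for 1455269_a_at -0.39 and -1.35. Dock11 was -0.73 ± 0.30 at 1429028_at and -0.86 ± 0.38 at 1443467_at (adjusted p = 0.67 and 0.766).

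B6 T1 cells, the earliest transitional stage, were also compared with B6 FO cells. Of the members 1 passed, Dock11 1443467_at, which fell by 1.70 on the log2 scale in T1 (-1.70 ± 0.38, SE, adjusted p = 0.0487, limma), where 1.01% of all probe sets passed, 0.548% higher and 0.464% lower. Its values were -0.99 and -0.44 in T1, against 0.71 and 1.26 in FO. The call was lost without any 1 of the 4 arrays, with -1.42 (adjusted p = 0.4495) without T1 replicate 1, -1.97 (adjusted p = 0.0894) without T1 replicate 2, -1.97 (adjusted p = 0.075) without FO replicate 1 and -1.42 (adjusted p = 0.387) without FO replicate 2. With only the low arrays it was -1.15, from 1 array of each subset, so no p is given. With the replicate number as a block 2 members passed, as did 2.61% of all probe sets. Was differed by 1.00 ± 0.25 (adjusted p = 0.0859), higher in T1, and Dock2 1438334_at by -0.99 ± 0.38 (adjusted p = 0.33). Dock2 1438334_at had -0.37 and 0.02 in T1, against 1.06 and 0.58 in FO.

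**Figure D3:**
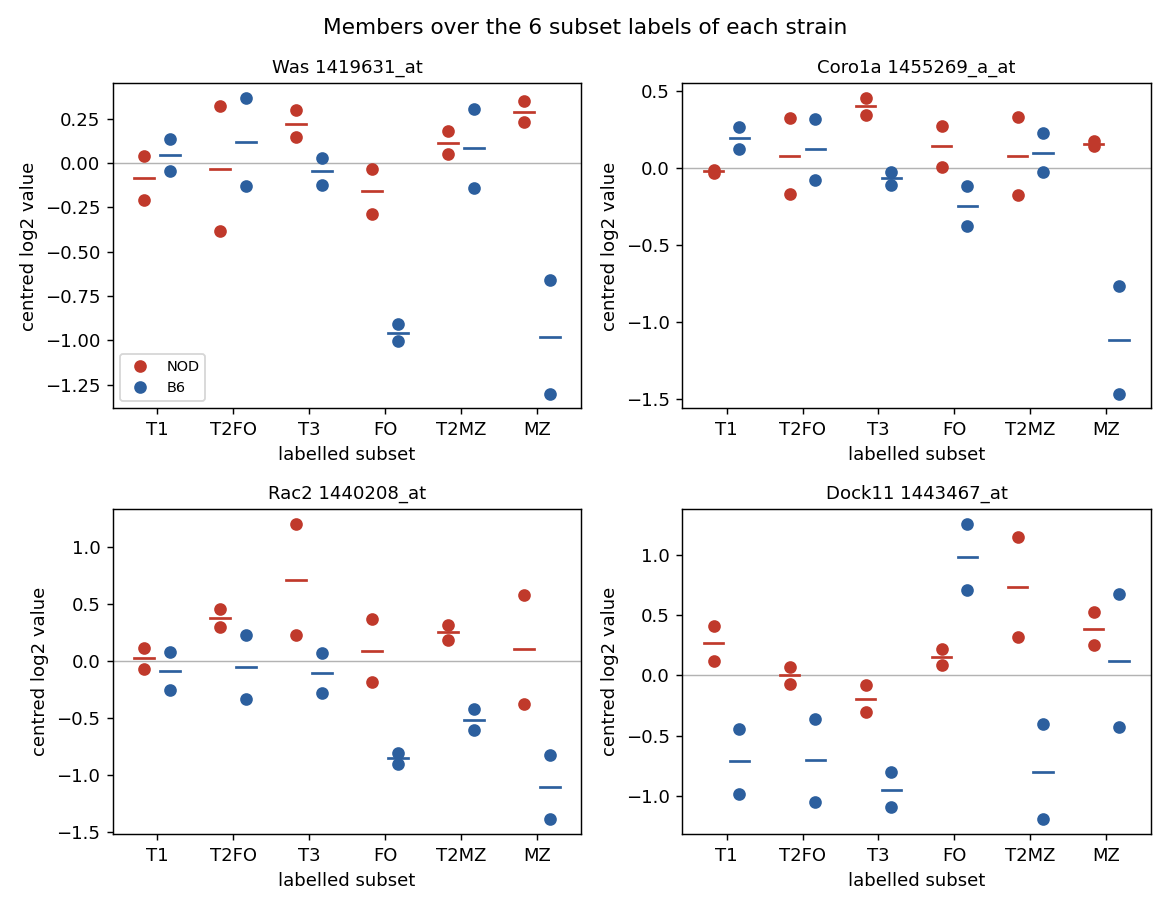
Centred log2 values of Was, Coro1a 1455269_a_at, Rac2 1440208_at and Dock11 1443467_at in the 6 labelled subsets, NOD left and B6 right in each, with dots for arrays and bars for means of 2. The NOD arrays of Was lie between -0.38 and 0.35, while Was in B6 FO and MZ lies at or below -0.66 and Coro1a in B6 MZ at -0.76 and -1.47.

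Strain differences were then read in single subset labels, with 2 arrays against 2. In the arrays labelled T1, 3 of 23 members rose in NOD and none fell, where 6.31% of all probe sets passed, 3.8% being higher and 2.51% lower. They were Dock8 1431961_at (0.99 ± 0.22), Dock8 1449419_at (0.99 ± 0.25) and Dock10 1439247_at (2.58 ± 0.63), with adjusted p of 0.0112, 0.0289 and 0.0228 (limma). Dock8 1431961_at had 0.76 and 0.69 in the NOD arrays labelled T1, against -0.29 and -0.24 in B6 T1. Dock8 1449419_at had 0.37 and 0.51, against -0.50 and -0.60. These NOD arrays are the ones whose Cd93 and Cr2 run against the label. Both Dock8 calls were lost without any 1 of the 4 arrays, with adjusted p of 0.0534 to 0.0971 for 1431961_at and 0.111 to 0.166 for 1449419_at (limma). The Dock10 difference was 1.73 (adjusted p = 0.256) without B6 T1 replicate 1 and 3.42 (adjusted p = 0.0118) without B6 T1 replicate 2. The Dock10 call was also lost without NOD T1 replicate 1 (adjusted p = 0.152) or replicate 2 (adjusted p = 0.0971, limma).

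In the arrays labelled MZ, 3 member probe sets rose in NOD and 1 fell, where 2.52% of all probe sets passed, 1.58% higher and 0.941% lower. Coro1a 1416246_a_at (1.38 ± 0.28, adjusted p = 0.0162), Coro1a 1455269_a_at (1.27 ± 0.24, adjusted p = 0.00882) and Was (1.27 ± 0.25, adjusted p = 0.0134) rose, and Dock2 1444741_at fell (-3.17 ± 0.68, adjusted p = 0.0218, limma). Coro1a 1416246_a_at had 0.21 and 0.14 in the NOD arrays labelled MZ, against -1.15 and -1.28 in B6 MZ. Without B6 MZ replicate 2 Coro1a 1455269_a_at was 0.92 (adjusted p = 0.122) and Was 0.95 (adjusted p = 0.167), and without B6 MZ replicate 1 both kept their call (1.62 and 1.59). B6 MZ replicate 1 is low at the 5' control and replicate 2 is not, so without replicate 2 both differences rest on 1 low B6 array. Both calls were also lost without NOD MZ replicate 1 (adjusted p = 0.0812 and 0.122) or replicate 2 (0.073 and 0.0813, limma). The calls of Coro1a 1416246_a_at (adjusted p = 0.0536 to 0.129) and Dock2 (0.0775 to 0.219, limma) were lost without any 1 of the 4 arrays.

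In the arrays labelled FO, 1 member passed, Dock2 1444741_at, which fell in NOD (-2.82 ± 0.68, adjusted p = 0.0384, limma), where 2.88% of all probe sets passed, 1.48% higher and 1.4% lower. It had -0.91 and -0.21 in NOD, against 2.52 and 2.00 in B6, and the call was lost without any 1 of these 4 arrays (adjusted p = 0.0994 to 0.254, limma). In the arrays labelled T2MZ, 2 members rose, Dock8 1449419_at (1.26 ± 0.25, adjusted p = 0.0125) and Dock11 1443467_at (1.53 ± 0.38, adjusted p = 0.0444, limma), where 2.73% of all probe sets passed, 1.71% higher and 1.02% lower. Dock8 1449419_at had 0.42 and 0.61 in NOD, against -0.71 and -0.78 in B6, and its call was lost without any 1 of the 4 arrays (adjusted p = 0.0655 to 0.127). Dock11 was 1.13 (adjusted p = 0.287) without B6 T2MZ replicate 1, 1.95 (adjusted p = 0.0547) without NOD replicate 1 and 1.11 (adjusted p = 0.401, limma) without NOD replicate 2. It kept the call without B6 T2MZ replicate 2 (adjusted p = 0.0439). In the arrays labelled T2FO and T3 no member passed, where 2.58% of all probe sets passed in T2FO (1.27% higher, 1.31% lower) and 1.72% in T3 (1.01% higher, 0.711% lower). At an unadjusted p under 0.05 were 5 members (21.7%) in T2FO, against 12.98% of all probe sets, and 4 (17.4%) in T3, against 10.3% of all. With the replicate number as a block within each strain, 1 member passed in T2FO, 1 in T3, 2 in FO and 6 in MZ (limma). Of all probe sets 4.12%, 3.14%, 5.01% and 4.33% passed in these fits, more than without the block in each. Dock2 1444741_at ran from -3.17 to -1.76 and Dock10 1439247_at from 0.95 to 2.58 over the 6 labels. That each kept its sign in all of them follows from the lack of overlap between the NOD and B6 arrays.

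The member values were also set beside the 5' control signal of the arrays, since the strains differ in it. Rac2 1417620_at and Coro1a 1435288_at stood lower in the low B6 set than in the middle set, without overlap. Rac2 had -2.06 to -1.19 in the low set and -0.31 to 0.06 in the middle set, and Coro1a -2.31 to -0.83 and -0.18 to 0.54. Dock10 1435343_at, Elmo1 1446610_at and Dock2 1444741_at stood the other way. Elmo1 had -0.12 to 0.45 in the low set, -0.80 to -0.36 in the middle set and -1.19 and -0.66 in the arrays like NOD. Members thus stood both lower and higher in the low set, and at Dock2 and Dock10 the low set and the set like NOD lay together, apart from the middle set. The B6 sets hold different subsets, since FO and MZ have no array in the middle set, so that subsets can be set side by side only within a set, and all 6 only within the low set. T1, T2FO, T3 and T2MZ each have 1 middle and 1 low array, and FO and MZ each have 1 low array and 1 like NOD. What moves the control signal was not tested.

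**Figure D4:**
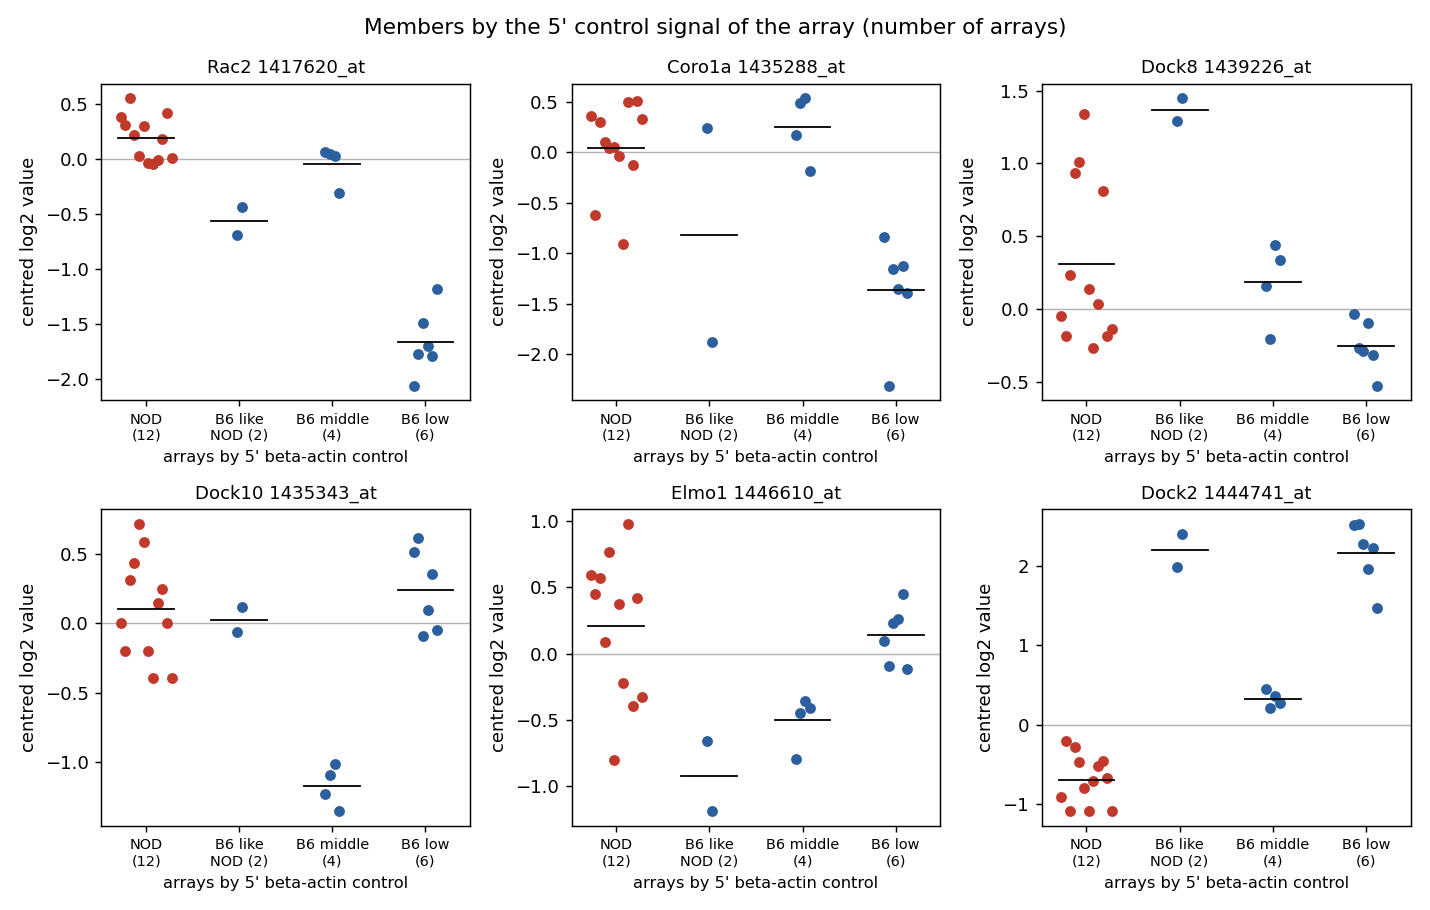
Centred log2 values of 6 member probe sets by set of arrays, namely all 12 NOD arrays and the B6 arrays like NOD (2), middle (4) and low (6) at the 5' beta-actin control, with dots for arrays and a bar for the mean. Rac2 1417620_at lies at or below -1.19 in the low set, and Dock2 1444741_at lies at or below -0.21 in NOD and at 0.21 or above in every B6 set.

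Other genes of the pathway were read from a list of 61 further DOCK and ELMO proteins, small GTPases, exchange factors, and WAVE, WASP and Arp2/3 components, of which 54 had a probe set of their own, 130 in all. Over the subsets 3 genes had a probe set higher in NOD, 1 lower, and 50 none, so that 3.08% of the probe sets passed, near the 3.02% of the array. Rhoh, a GTPase of blood cells that does not cycle like Rac, was higher at 1443015_at by 2.22 ± 0.19 (SE, adjusted p = 0.0226), with 0.37 to 2.09 in NOD arrays and -1.75 to -0.37 in B6 arrays. Its other probe sets differed by 0.97 and 0.14. Wasf2, the WAVE2 subunit that Rac acts on, was higher at 1438683_at (1.91 ± 0.27, adjusted p = 0.0477) and 0.20 at its other probe set. Wasl, the widely expressed relative of WASP, was higher at 1426777_a_at (1.01 ± 0.11, adjusted p = 0.03), and its 3 other probe sets lay between -0.35 and -0.04. Vav3, a Rac exchange factor downstream of the B cell receptor, was lower at 1448600_s_at (-0.77 ± 0.10, adjusted p = 0.0393, limma) and -0.50 and 0.04 at the others. All 4 calls were lost when either NOD pool was left out, where no probe set of the array passed, and with the B6 FO and MZ numbers crossed, where 59 of all did. In FO and MZ with only the B6 arrays numbered 2, Vav3 stood at 0.28 (adjusted p = 0.723, limma). The list's median was -0.01, against -0.03 over all probe sets.

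For B6 MZ against FO, 1 of the 54 genes passed and it was lower in MZ. Swap70, a Rac-binding protein of B cells, fell by 0.82 on the log2 scale at 1434225_at (-0.82 ± 0.17, adjusted p = 0.0365, limma), with 0.00 and -0.06 in MZ, against 0.79 and 0.80 in FO, and its other probe set differed by -0.60. None of the list passed over the subsets of B6, over those of NOD, in the interaction or in B6 T1 against FO. In the single labels between 2 and 8 of its probe sets passed, or 1.54% to 6.15%. In the arrays labelled MZ 8 passed (6.15%, against 2.52% of all probe sets), all higher in NOD, and in those labelled T1 6 passed (4.62%, against 6.31% of all), 3 higher and 3 lower.

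The probe sets of other genes whose pattern was most like each member were looked up over the 12 group means. The member probe set with the largest spread between groups was used, and the measure was Pearson's r with no test. Dock2 1444741_at was most like 4932438A13Rik, Kat2b and Fbxw11, each with r of 0.99. Rac2 1417620_at was most like Ttf2 (0.99), Glmp (0.98) and Adi1 (0.98), and Was was most like Emc10, Lamtor1 and Mpv17l2 (0.96 to 0.98). Dock10 1439247_at was most like Napsa (0.98), Zfp729a and Cfap97 (0.97 each), and Dock11 1443467_at like Herc4, Chd2 and Senp7 (0.96 to 0.97). Dock8 1449419_at was most like Xrn1, Tra2a and Pde7a (0.98 each), and Coro1a 1435288_at like Med12 (0.98), Psmf1 (0.95) and Snrk (0.94). Rac1 1451086_s_at and Elmo1 1446610_at had lower best values, 0.94 with Zfp606 and 0.92 with Psmd1. All these r share the same arrays, strains and control signal.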

How the data were processed

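RNA of sorted splenic B cells was amplified in 2 cycles from an oligo(dT) primer and hybridised to Affymetrix mouse arrays, per the labels' protocols. The submitters' processing notes name RMA for the deposited log2 values (log base taken as 2), with no version number. Each probe set was found to be centred on its median over the 24 arrays (largest median 5e-07), so no filter on dim probe sets was possible. Of 45101 probe sets 64 controls were left out. The platform's annotation gave 34945 probe sets 1 gene, 932 several and 9160 none, and all 23 member probe sets matched RefSeq's GRCm38.p6 table by gene number.

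limma 3.58.1 in R 4.3.3 was fitted to all 45037 probe sets, with Benjamini-Hochberg adjustment over all and calls under 0.05. Strain over subsets used 4 pool means, and the other comparisons used 12 group means over 24 arrays, which takes arrays of one pool as independent. The number of arrays limits the precision. Replicates differed by 0.26 in NOD and 0.45 in B6 (log2), and the highest correlation between arrays was 0.89.

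Per the labels each experiment gave 1 array of every subset of a strain, so that replicate numbers may pair subsets. Deviations from group means correlated at 0.73 to 0.87 among B6 T1, T2FO, T3 and T2MZ, at 0.71 between FO and MZ and at -0.62 to -0.37 between these sets, and at -0.04 to 0.51 in NOD. Pathway genes were named where called, up to 4 each way, over subsets and for B6 MZ against FO, and alike genes were the 3 with the highest r. The members, lists and tests were chosen with earlier results of these data known. Alternatives were a replicate or random pool block, the 5' control difference as covariate, array medians set equal, fewer arrays or probe sets, gene means, and each array left out. The scripts were tested on simulated data. Figures used matplotlib 3.10.9 in Python 3.11.15.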

Additional observations from a re-analysis of the deposited data

How the results depend on the processing

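Of 175 alternative values of the 13 member values that passed a test, 97 stayed past the threshold. Of the 175, 133 have a direction and kept it, and 42 are F values without one. The replicate block, the random pool block, only the arrays compared and probe sets of 1 gene only leave each difference unchanged. In those settings the direction could not turn. Member counts over the subsets, 0 as reported, were 11 with arrays as independent (19.8% of all probe sets passed), 7 with the 5' control difference as covariate (26.6%), 5 in FO and MZ with only the B6 arrays numbered 2 (6.19%), 0 to 5 with a pool left out (0 to 7.62%), 11 without the low B6 arrays (26.4%) and 14 with only these (32.5%), the last 2 chosen after seeing the data. The 0 as reported and the counts with a pool left out rest on pool means. The fits with the covariate, with the B6 arrays numbered 2 and by low signal took arrays as independent. Their counts are therefore not to be read against 0. Beside the 11 with arrays as independent, the covariate lowered the member count to 7, while 26.6% of all probe sets passed, against 19.8%. With only the arrays compared, 0 were called in T1 (1.56% of all probe sets), FO (0.064%), T2MZ (0.04%) and B6 subsets (0.175%). In B6 T1 against FO no member and no other probe set passed. In these fits 1 was called in MZ (0.48% of all probe sets) and 1 in NOD subsets (3.21%). With the covariate, 2 were called in T3 (7.30% of all probe sets), 3 in FO (7.98%) and 4 in T2MZ (9.03%). It gave 7 in B6 subsets (6.64%), 1 in B6 MZ against FO (1.55%) and 4 in B6 T1 against FO (5.04%). In these comparisons too, the fits without the low B6 arrays or with only these leave 1 array per B6 group, and no count is given. The replicate block gave 1 in T2FO (4.12% of all probe sets), 1 in T3 (3.14%), 2 in FO (5.01%), 6 in MZ (4.33%) and 2 in B6 T1 against FO (2.61%). It gave 0 over the subsets (18 of all probe sets, against 1361). With the B6 FO and MZ numbers crossed, chosen after seeing the data, the block gave 6 in B6 subsets (7.64%) and 3 in B6 T1 against FO (5.66%). The random pool block gave 1 in T3 (1.95%) and 2 in B6 T1 against FO (1.54%), where equal array medians gave 0 (0.986%). Leaving out 1 array leaves 1 array in its group, so no member count is given for these fits. In T1, FO, T2MZ, MZ and B6 T1 against FO every such fit also called fewer of all probe sets. Over the subsets the sign turned with the covariate for Dock2 1438334_at (0.15), Dock8 1439226_at (-0.46), Rac1 1451086_s_at (-0.13) and Coro1a 1435288_at (-0.065). In FO and MZ with the B6 arrays numbered 2 it turned for Dock8 1431961_at (-0.24) and 1439226_at (-1.14), Dock11 1429028_at (-0.037) and 1443467_at (-0.69) and Rac1 1451086_s_at (-0.43). With a pool left out Dock11 1429028_at ranged from -0.14 to 0.17, Elmo1 1424523_at from -0.12 to 0.14 and Rac1 1423734_at from -0.034 to 0.10. Without the low B6 arrays it turned for Dock2 1438334_at (0.047) and Dock8 1439226_at (-0.27), and with only these for Dock10 1435343_at (-0.14), Dock11 1429028_at (-0.20), Rac1 1423734_at (-0.069) and 1437674_at (0.035) and Elmo1 1424523_at (-0.29). The cause was not tested. On gene means 0 of 9 genes passed, where 433 of 18193 did.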
